A study of Caenorhabditis elegans with 4 samples.

Results

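Chromosome III of Caenorhabditis elegans carried 855 peaks of ZIM-3 ChIP-seq, out of 6659 in the authors' list for the whole series (the series-wide list). They were chosen by position alone, as every entry of that list on III. Of the other lists, that of replicate 1 held 821 peaks on III and that of replicate 2 held 177. All positions are on WormBase WS220, the build named in the file headers.

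The material was whole hermaphrodites of the strain fem-2(b245), genotype fem-2(b245)III, at 20 °C, for ChIP and input alike. The gene fem-2 acts in sex determination, and the strain's mutation lies on the same chromosome as the peaks described here. The stage label reads young adult with a germline, whereas the growth protocol mentions gravid animals. Chromatin from ground frozen worms was fixed with 1% formaldehyde for 10 minutes, and germ cells and somatic cells were not separated in the protocol. ZIM-3 was precipitated with SDQ3949, an affinity-purified rabbit polyclonal antibody. A single group of 2 ChIP samples was analysed; the 2 input DNA samples carry no peak list here, and no other strain, tissue or antibody was compared. The labels leave unsaid whether both ChIP samples came from separate cultures.

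In C. elegans meiosis each chromosome finds its homolog through a pairing center, a region towards one of its ends that carries many copies of short sequence motifs. A family of zinc finger proteins binds these regions: ZIM-3 serves chromosomes I and IV, ZIM-1 serves II and III, ZIM-2 serves V and HIM-8 serves X. Chromosome III is thus not among those whose pairing ZIM-3 is known for. As on the other autosomes, its arms are rich in repeats and recombine often, while its center is rich in conserved genes and recombines rarely. The comparisons below ask where on III the antibody's peaks lay, how far the replicates shared them, and where III stood beside II, IV, V and X.

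Peaks are not replicates, and with 1 ChIP group no test between samples could be made, so every value on III is a description of the deposited lists. Intervals in brackets are exact (Clopper-Pearson) 95% intervals and cover counting error only. The lists give no read counts, so the depth behind a peak is unknown. Scores are the authors' own, on a scale the files do not name, and their levels are read within one list at a time.

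Chromosome III carried 62.0 series-wide peaks per Mb over a length of 13783723 bp, the largest peak end in the lists. II had 60.1, IV 84.9, V 67.7 and X 45.5 peaks per Mb. III therefore lay next to II, its partner for ZIM-1, and below IV. In the list of replicate 1 the density was 59.6 peaks per Mb on III, against 55.8 on II, 79.4 on IV, 57.5 on V and 42.6 on X. In the list of replicate 2 it was 12.8 on III, against 11.5 on II, 14.2 on IV, 10.5 on V and 11.1 on X. Among these 5 chromosomes III came after IV in both replicate lists, and after IV and V in the series-wide list. The covered share of III was 3.17% by series-wide peaks, 2.97% by those of replicate 1 and 1.06% by those of replicate 2. In replicate 2 it was the highest of the 5, with 0.741% on II, 0.912% on IV, 0.829% on V and 0.965% on X. Both places of III in replicate 2 rested on 1 central stretch of 47 kb, described below. With the peaks of that stretch left out on III alone, replicate 2 had 10.3 peaks per Mb and a covered share of 0.783% on III, which in density is below the other 4 chromosomes and in coverage below IV, V and X.

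Peaks were denser in the arms of III, taken as the outer 30% of its length on each side, than in its center. The left arm held 294 peaks and the right arm 327, against 234 in the center. This came to 71.1 peaks per Mb in the left arm and 79.1 in the right arm, against 42.4 in the center. Both arms together held 72.6% of the III peaks (69.5% to 75.6%), where their share of length is 60%. Over all nuclear chromosomes of the series-wide list 73.3% of the peaks were in arms, so III stood near the background. II had 78.0%, IV 73.4%, V 67.2% and X 73.8%.

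The arms of III took the same shape in replicate 1, with 263 peaks in the left arm and 337 in the right arm, against 221 in the center. That is 73.1% in arms, against a background of 73% for that list. Replicate 2 placed 43 peaks in the left arm and 69 in the right arm, against 65 in the center. Its arms thus held 63.3% (55.7% to 70.4%), an interval that includes the length share and whose upper end is close to the 70.4% of all its nuclear peaks. A single stretch of the center, from III 7405312 to 7452268, held 35 of the 65 central peaks of replicate 2. When its peaks were left out, which was decided after the values were seen, the arms' share was 78.9% for replicate 2, 75.4% for replicate 1 and 73.9% for the series-wide list.

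The balance between the arms also differed between lists. The left arm of III held 34.4% of the series-wide peaks (31.2% to 37.7%) and the right arm 38.2% (35% to 41.6%). In replicate 2 the left arm held 24.3% (18.2% to 31.3%) and the right arm 39.0% (31.8% to 46.6%). Over all nuclear peaks left arms held 37.6% in the series-wide list, 36.9% in replicate 1 and 33.8% in replicate 2. In the series-wide list the left arm held more peaks than the right one on IV (42.5% against 30.9%) and on X (44.5% against 29.3%), while on III, II and V the right arm held more. The left arm had 37.3% and the right arm 40.7% of the peaks on II, and 33.1% and 34.1% on V.

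**Figure D1:**
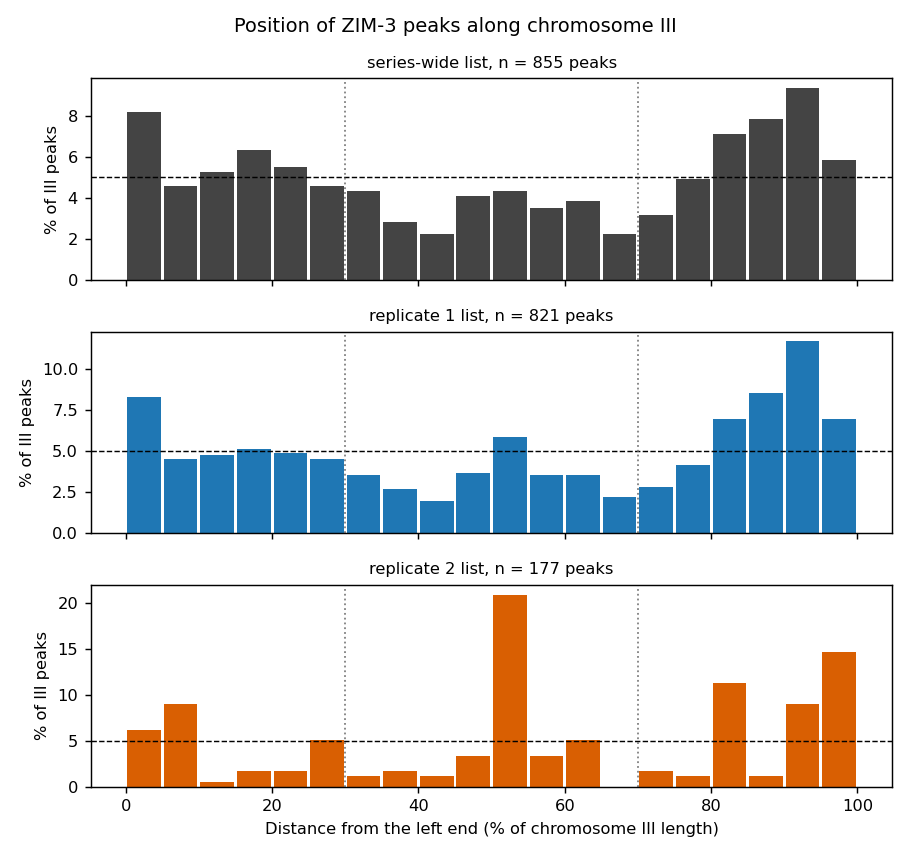
Share of the III peaks of each list (y axis, percent of the list's III peaks) by distance from the left end (x axis, percent of the chromosome's length, in steps of 5%). The dashed line marks an even spread of 5% and the dotted lines bound the center. The series-wide and replicate 1 lists are lowest between 35% and 45% and between 65% and 70% of the length, and replicate 2 has its highest bar, 20.9%, between 50% and 55%.

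Along the chromosome, in steps of 5% of its length, the series-wide count was 70 peaks in the first step, 19 between 40% and 45%, and 80 between 90% and 95%. Replicate 1 had 68, 16 and 96 peaks in these steps, and replicate 2 had 11, 2 and 16. At the right end the last step held 50 series-wide peaks, 57 of replicate 1 and 26 of replicate 2. Replicate 2 had more of its III peaks in that last step (14.7%) than in the first one (6.21%), while in the series-wide list the order was the reverse (5.85% against 8.19%). Between 65% and 70% of the length replicate 2 had 0 peaks, a count that sets no limit on binding, since the list holds only peaks above its own score minimum.

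**Figure D2:**
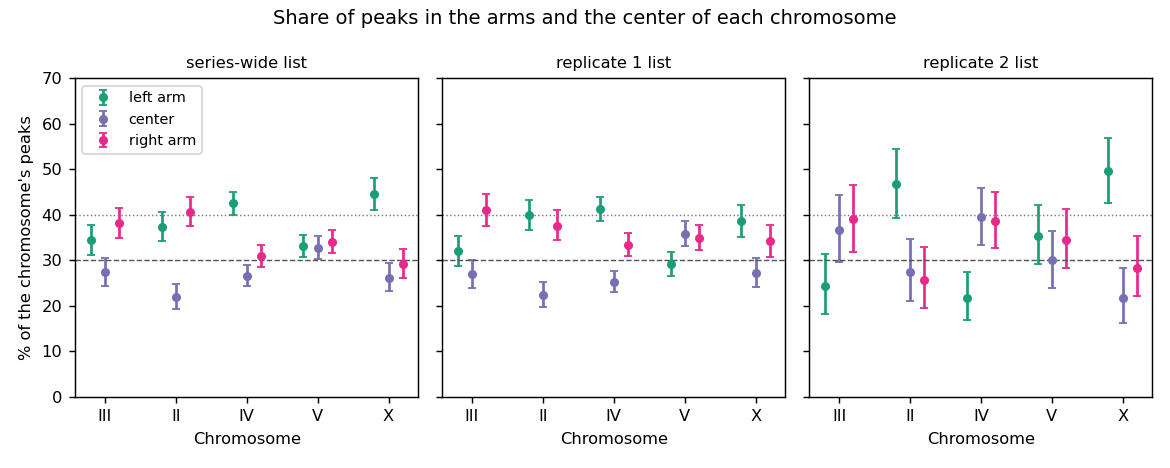
Share of each chromosome's peaks in the left arm, the center and the right arm (y axis, percent) for III, II, IV, V and X in the 3 lists, with exact 95% intervals. The dashed line at 30% is the length share of 1 arm and the dotted line at 40% that of the center; the center of III is at 27.4% in the series-wide list, 26.9% in replicate 1 and 36.7% in replicate 2.

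Peaks lay at both tips of III. At the right tip this holds by definition, since the length was taken as the largest peak end. The tips of the other chromosomes are not given here. The first series-wide peak began at position 1 and ended at 222, with a score of 27.4. Replicate 1 had a peak from 1 to 196 with a score of 379, and replicate 2 a peak from 1 to 234 with a score of 456. At the right tip the last series-wide peak, III 13783198 to 13783723, scored 41.0. It overlapped a peak of neither replicate list, and was the highest-scoring III peak of which that was true. The last peaks of the replicates lay just before it, at III 13782351 to 13782876 in replicate 1 and at III 13782104 to 13783031 in replicate 2.

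The peaks of III were mostly narrow and of low score. Their median width was 273 bp in the series-wide list, with the middle of the distribution between 197 and 433 bp. The median was 292 bp on II, 290 bp on IV, 276 bp on V and 275 bp on X. A width of 1 kb or more was reached by 71 III peaks, or 8.30% (6.54% to 10.4%), against 9.09% of all nuclear peaks. These broad peaks made up 44.4% of the bases covered on III. Their median score was 33.7, against 7.0 for the 784 narrower ones, and 22 lay in the left arm, 24 in the right arm and 25 in the center. Over the 855 peaks, Spearman's rho between score and width was 0.61, a description across peaks of 1 list.

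The medians of arms and center on III were close in the series-wide list, and the replicate lists differed from it. The median series-wide score was 7.40 in the arms and 7.41 in the center. It was 124.9 in the arms and 143.2 in the center in replicate 1, and 148.8 in the arms and 160.4 in the center in replicate 2. For the 89 peaks with support in both replicates the median series-wide score was higher in the arms, at 34.96, against 23.27 in the center. Without the central stretch the value of the center was 29.70. Median series-wide width was 270 bp in the arms and 288 bp in the center. In replicate 1 the medians were 277.5 bp in the arms and 335 bp in the center, and in replicate 2 they were 434.5 bp in the arms and 672 bp in the center. The order in replicate 2 rested on the central stretch of 35 peaks: without it the median widths there were 434.5 bp in the arms and 404 bp in the center. Without it the median scores of replicate 2 were 148.8 in the arms and 99.9 in the center, so that order turned as well. The series-wide median scores were then 7.40 in the arms and 7.15 in the center. In replicate 1 the center kept the higher medians without the stretch, with widths of 277.5 bp in the arms and 319.5 bp in the center. Within the arms of the series-wide list the left one had the lower median width, 238 bp, against 290 bp in the right one. Broad peaks were 7.17% of the arm peaks and 15.4% of the central peaks in replicate 1. In replicate 2 they were 16.1% of the arm peaks and 33.8% of the central peaks. Without the stretch the central share was 8.16% in replicate 1 and 20% in replicate 2. Among the 72 III peaks in the highest-scoring 10% of nuclear peaks, median widths were 1113 bp in the arms and 1107 bp in the center.

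**Figure D3:**
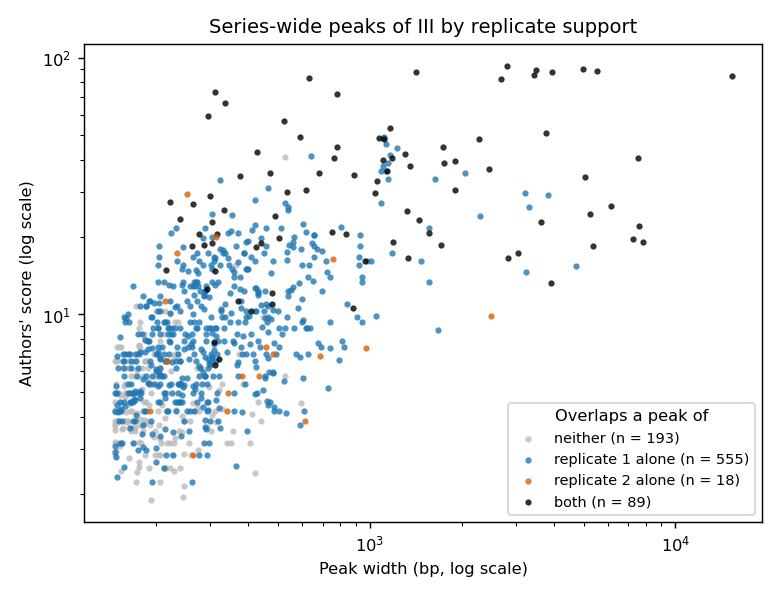
Score against width of the 855 series-wide III peaks, on log axes, with points colored by whether they overlap a peak of both replicates, of 1 or of neither. Peaks found in both replicates (median width 960 bp, median score 28.9) lie to the upper right of those found in neither (185 bp and 4.21).

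Of the highest-scoring 10% of nuclear peaks, those with a score of at least 25.96, III held 72, which is 8.42% of its own peaks against a background of 10. The share was 11.3% on II, 9.69% on IV, 9.25% on V and 13.4% on X. Of the 100 highest nuclear peaks 10 were on III, which is 1.17% of its peaks against a background of 1.5. II held 9 of them (0.979% of its peaks), IV 15 (1.01%), V 17 (1.20%) and X 27 (3.35%). III was thus the lowest of these 5 at the wider threshold and above II and IV at the narrower one, and none of these differences was tested. The highest score on III was 92.98, against 103 on II, 233 on IV, 96.3 on V and 136 on X.

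The 10 highest peaks of III ran from a score of 92.98 to one of 82.22 and ranked between places 25 and 73 of all nuclear peaks; the next III peak scored 73.25. Of these 10 peaks, 5 lay in the left arm, 2 in the right arm and 3 in the center. All 10 overlapped a peak of both replicates, and 9 were at least 1 kb wide. At 7 of them both replicate lists gave the score of 3100, at which 17 III peaks of replicate 1 and 9 of replicate 2 are tied. The leading peak, III 3334221 to 3337034, was 2814 bp wide and matched 1 peak in each replicate, beginning 14 bp away in replicate 1 and 19 bp away in replicate 2. The next, III 2496889 to 2501878, scored 90.43 and was 4990 bp wide, and the one after it, III 1299630 to 1303132, scored 89.14 and was 3503 bp wide. Also in the left arm were III 1017236 to 1020684 (score 85.34) and III 931102 to 931733 (score 83.20). The last of these was the only one of the 10 under 1 kb, at 632 bp, and the replicates scored it 1161 and 2074.

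In the center the leading peaks were III 5353011 to 5358547 with a score of 88.63, III 7444256 to 7448184 with 88.25, and III 7594584 to 7597271 with 82.22. The right arm had III 10224459 to 10225875 (score 88.22) and III 13584082 to 13599350 (score 85.03). The first of this pair was scored 2455 in replicate 1 and 3100 in replicate 2. The second, at 15269 bp, was the widest peak of III, and the widest on II, IV, V and X measured 7272, 6545, 8208 and 10449 bp. The other 4 of the 5 widest peaks on III had scores of 19.11 to 40.61. They were III 6566680 to 6574502 (7823 bp), III 7415466 to 7423078 (7613 bp), III 11429169 to 11436685 (7517 bp) and III 13074918 to 13082205 (7288 bp).

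Support in the replicate lists was uneven. The series has only these 2 ChIP samples, so the series-wide list is not independent of the replicate lists. Overlap with them is a match between lists and no separate evidence for a peak. Of the 855 series-wide III peaks, 662 (77.4%; 74.5% to 80.2%) overlapped a peak of at least 1 replicate by 1 bp or more, against 75.9% of all nuclear peaks. Replicate 1 alone accounted for 555 of them (64.9%, background 62), both replicates for 89 (10.4%, background 10.6) and replicate 2 alone for 18 (2.11%, background 3.4). The remaining 193 (22.6%, background 24.1) had a counterpart in neither list. Without replicate 1 the supported share of III was 12.5% (background 14), and without replicate 2 it was 75.3% (background 72.5). Most of the supported peaks thus rested on replicate 1, on III as over all nuclear peaks. Overlap with replicate 2 was 13.4% on II, 13.7% on IV and 20.5% on X, and lower on V than on III. The shares on III stood near those on II, where 10.8% were in both and 23.1% in neither. On X 14.8% were in both (12.4% to 17.4%), beside the 8.44% to 12.7% of III. The ends of these intervals overlap slightly, which does not show that the shares are alike, and the difference was not tested.

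Overlap with the replicate lists was greater among peaks of higher score. Because the lists stem from the same ChIP samples, this order is no independent check of the scores. The shares by score or width over all nuclear peaks are not given here. Divided by score into 5 equal groups of 171, the III peaks overlapped replicate 1 in 38.0%, 66.7%, 81.3%, 93.6% and 97.1% of cases from the lowest group to the highest. For replicate 2 the shares were 2.34%, 1.75%, 4.68%, 7.02% and 46.8%. Of the 89 peaks found in both replicates, 76 were in the highest group and 0 in the 2 lowest. Of the 193 found in neither, 102 were in the lowest group and 1 in the highest, the right tip peak described above. Width moved with support as well, and its part in these counts was not tested. Of 222 peaks under 200 bp, 0 were in both replicates and 115 in neither, whereas of the 71 broad peaks 44 were in both and 0 in neither.

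**Figure D4:**
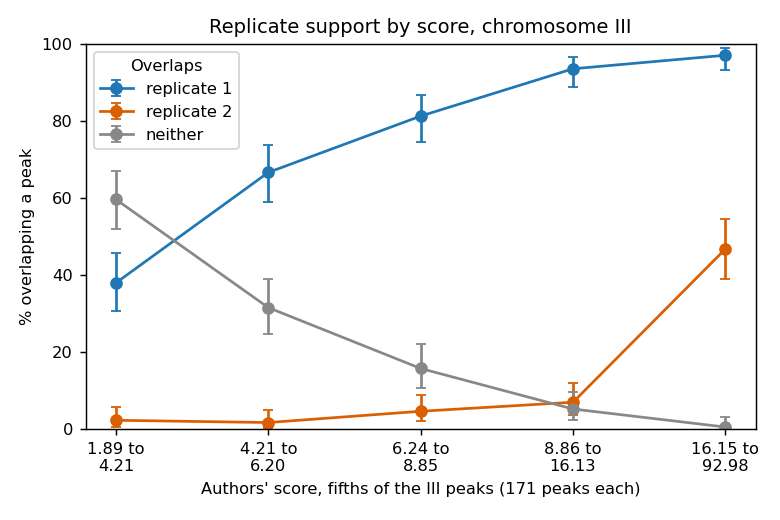
Share of series-wide III peaks that overlap a peak of replicate 1, of replicate 2 or of neither (y axis, percent, exact 95% intervals) in 5 equal groups by score (x axis, the range of the authors' scores). Support by replicate 2 stays at or below 7.02% in the 4 lower groups and reaches 46.8% in the highest.

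By region, 9.18% of the left arm's peaks on III (6.14% to 13.1%) and 9.48% of the right arm's (6.53% to 13.2%) were in both replicates, against 13.2% of the central ones (9.18% to 18.3%). Peaks in neither list made up 27.2% of the left arm (22.2% to 32.7%) and 20.8% of the right arm (16.5% to 25.6%), against 19.2% of the center (14.4% to 24.9%). These intervals overlap between regions, which does not show that the shares are alike, and no difference was tested. Without the central stretch of 47 kb, 20 of the 219 remaining central peaks were in both replicates, beside 58 of the 621 arm peaks (9.34%). The higher central share thus rested on that stretch. The highest peak supported by replicate 1 alone was III 1122920 to 1124032, with a series-wide score of 49.26 and a replicate 1 score of 2615. The highest supported by replicate 2 alone was III 4756990 to 4757240, with a series-wide score of 29.38 and a replicate 2 score of 105.

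Of the 177 peaks of replicate 2 on III, 155 (87.6%; 81.8% to 92.0%) overlapped a peak of replicate 1, against a background of 76.8. The shares were 81.7% on II, 72.2% on IV, 75.0% on V and 71.6% on X, so III had the highest value of these 5; the difference was not tested. Without the central stretch of 35 peaks the share on III was 84.5% (77.5% to 90.0%), an interval that includes the value of II. Over all III peaks of replicate 2, the share was 76.7% in the left arm and 91.3% in the right arm, against 90.8% in the center. The central value, 59 of 65 peaks, rested largely on the stretch, whose 35 peaks all overlapped replicate 1. Only 30 central peaks of replicate 2 lay outside it. Of the 821 replicate 1 peaks on III, 121 (14.7%, background 13.8) met a peak of replicate 2. Where exactly 1 peak met 1 peak, 73 pairs in all, the midpoints lay a median of 29 bp apart, and Spearman's rho between the scores was 0.46 across these pairs.

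The highest-scoring peaks of replicate 1 were not all found in replicate 2. Replicate 1 gave a score of 3100 or more to 18 peaks on III, of which 14 overlapped a peak of replicate 2 and 4 did not. Of all replicate 1 peaks on III, 14.7% overlapped one. Replicate 1 peaks without a counterpart reached 3209.88 on II, 3196.76 on IV, 3117.58 on V and 3100 on X. Such peaks were thus not particular to III, and their share over all nuclear chromosomes is not given here. The 4 on III were III 2119345 to 2120676, the highest of the list on III at 3105.13, III 273368 to 276578, III 393197 to 396533 and III 6998042 to 7000735, each of the last 3 at 3100. The series-wide peaks at these 4 sites scored 26.3 to 44.4, and those at the other 14 peaks scored 36.8 to 92.98. Replicate 2 gave 3100 to 9 peaks on III, and all 9 overlapped a peak of replicate 1. The first of them by position was III 1017252 to 1020720. Its strongest peaks on III without a counterpart in replicate 1 were III 449977 to 452674, with a score of 1259, III 13446822 to 13447859, with 580, and III 6537058 to 6537469, with 244.

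Most replicate peaks on III overlapped a peak of the series-wide list, which is not independent of them. Of the replicate 1 peaks 705 (85.9%, background 86.5) overlapped a series-wide peak, and of the replicate 2 peaks 172 (97.2%, background 97.2). The 116 replicate 1 peaks that did not had a median score of 65.4, against 154.8 for those that did. The highest of them was III 9504146 to 9504360, with a score of 184.85. The strongest of the 5 such peaks of replicate 2 was III 452783 to 453356, with a score of 113.15.

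Clusters on III, runs of at least 5 peaks with gaps of 5 kb or less, held a smaller share of the series-wide peaks than over the genome. There were 31 clusters with 218 peaks, or 25.5% of the III peaks (22.6% to 28.6%), against a background of 33.5. II had 27.6%, IV 39.0%, V 42.2% and X 29.3% of their peaks in clusters. The median gap between neighbours was 5154 bp on III, 3885 bp on II, 2606 bp on IV, 2595 bp on V and 5150 bp on X. In replicate 1 clusters held 24.6% of the III peaks (background 28). In replicate 2 they held 42.4% (35% to 50%), against a background of 29.5, and 5 clusters made up this share. The share in replicate 2 was 38.3% on II and 37.6% on X, both inside that interval, 22.6% on IV and 27.3% on V. Without the largest cluster, left out on III alone, the share on III was 28.2%. The background keeps the largest cluster of every chromosome, so these values are not like for like.

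The series-wide clusters of III were spread over the chromosome, 10 in the left arm, 11 in the right arm and 10 in the center. They held 5 to 17 peaks over spans of 3530 to 47849 bp, and 27 of the 31 had at most 8. Peaks in clusters had a median score of 7.48 and peaks outside them one of 7.32. Peaks found in both replicates made up 16.1% of the peaks in clusters and 8.48% of those outside. Those found in neither made up 25.2% of the peaks in clusters and 21.7% of those outside. Of the 35 peaks in clusters that were found in both replicates, 11 lay in the single cluster with most peaks. The share in both for clusters on the other chromosomes is not given here. Of the 31 clusters, 16 held no peak of replicate 2 and 1 held no peak of replicate 1.

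The cluster with most peaks had the highest coverage of the 31 series-wide clusters of III. Stretches that this list holds as a few wide peaks are not clusters by the rule used and are not in this ranking. It ran from III 7405269 to 7453117, just right of the middle of the chromosome, and its 17 series-wide peaks covered 92.5% of that span. Replicate 1 had 27 peaks there, covering 88.9%, and replicate 2 had 35, covering 81.0%. Of the 17 series-wide peaks, 11 were in both replicates, 4 in replicate 1 alone, 1 in replicate 2 alone and 1 in neither. Their scores ran from 2.78 to 88.25 with a median of 17.4, and their median width was 1713 bp. The 35 peaks were 19.8% of all replicate 2 peaks on III. The largest cluster of replicate 2 held 9.71% of its peaks on II, 6.85% on IV, 10.9% on V and 9.14% on X. In the series-wide list the largest cluster held 17 peaks on III, against 16 on II, 25 on IV, 58 on V and 19 on X.

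The next clusters of the series-wide list were sparser. III 8335390 to 8352374 held 13 peaks, which covered 37.7% of the span, with 9 peaks of replicate 1 and 5 of replicate 2. III 6774656 to 6785461 held 12 peaks covering 29.7%, with 9 peaks of replicate 1 and 0 of replicate 2. III 315947 to 332666 held 11 peaks with a median score of 4.21, and III 4749241 to 4760572 held 8. The replicates had 5 and 2 peaks in the first of this pair and 3 and 1 in the second.

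In replicate 2 the other clusters each coincided with 1 or 2 series-wide peaks. The 14 replicate 2 peaks from III 13584162 to 13599055 all fell in the widest series-wide peak, where replicate 1 had 6 peaks. From III 13075129 to 13085854 replicate 2 had 13 peaks, replicate 1 had 8 and the series-wide list 2. The 8 peaks from III 11429929 to 11436639 and the 5 from III 6566879 to 6574436 each lay in a single series-wide peak. In all, 20 series-wide III peaks overlapped several replicate 2 peaks and took in 88 of its overlaps, and 67 overlapped several replicate 1 peaks. No gap between neighbouring series-wide peaks on III was under 51 bp, while the replicate lists had gaps of 1 bp. In the cluster inside the widest peak the 6 peaks of replicate 1 covered 98.9% of the span and the 14 of replicate 2 covered 89.1%. In the cluster of 13 the coverage was 86.8% by the 8 peaks of replicate 1 and 52.7% by replicate 2, and in the cluster of 8 it was 99.9% by 2 peaks of replicate 1 and 43.4% by replicate 2. Replicate 2 had more peaks and less coverage than replicate 1 in each of these 3. The spans were chosen as runs of separate replicate 2 peaks, which favors that order, so it is no comparison of the replicates. In covered bases the arms held 67.9% of the series-wide total on III, against 72.6% of the peaks.

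**Figure D5:**
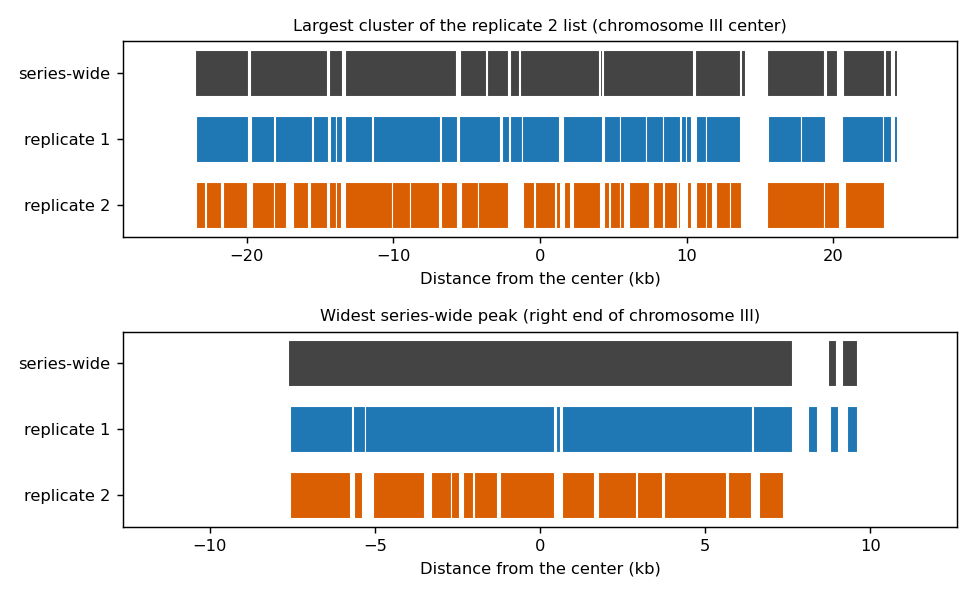
Peaks of the 3 lists (rows; each bar is 1 peak drawn to scale) in the largest cluster of the replicate 2 list and around the widest series-wide peak, by distance from the center of each stretch (x axis, kb). The first stretch holds 35 peaks of replicate 2, and the widest series-wide peak of 15269 bp meets 6 peaks of replicate 1 and 14 of replicate 2.

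Fixed windows of 100 kb gave the same leading site. III 7400001 to 7500000 was the densest window of III in all 3 lists, with 21 series-wide peaks, 31 of replicate 1 and 35 of replicate 2. The densest series-wide window held more peaks on II (31), IV (30), V (60) and X (36). The next windows of III differed between lists. They were III 300001 to 400000 (19 peaks) and III 3800001 to 3900000 (18) in the series-wide list, and III 2700001 to 2800000 and III 12700001 to 12800000 (18 each) in replicate 1. In replicate 2, whose list held 0 peaks in both of these replicate 1 windows, they were III 13500001 to 13600000 (14) and III 13000001 to 13100000 (13). Over the 138 windows of III, Spearman's rho between the counts of replicates 1 and 2 was 0.39, and Pearson's r was 0.52. Without the densest window rho was 0.38 and r was 0.32. These are descriptions across windows of the same 2 libraries, and 83 of the windows held no replicate 2 peak.

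Long stretches without peaks lay mainly in the center of III. Of 68 gaps over 50 kb between neighbouring series-wide peaks, 17 were inside the left arm, 13 inside the right arm and 36 inside the center, and the other 2 crossed a boundary between regions. The 3 longest were III 7997797 to 8203458 (205.7 kb), III 5460712 to 5636076 (175.4 kb) and III 9237387 to 9408298 (170.9 kb), all in the center. Replicate 1 had 4, 1 and 2 peaks in them and replicate 2 had 0 in each. The median gap was nevertheless 5766 bp in the left arm and 5285 bp in the right arm, against 3641 bp in the center. Neighbouring peaks in the center were thus closer at the median than those in the arms, although more of the long gaps lay there.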

How the data were processed

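The authors deposited 3 peak lists, in which every peak carries its position and a score of unnamed scale. Per the file headers, positions are on WormBase WS220, and the lists name MACS for the replicates and MACS v2 for the series-wide list; the submitters' processing notes name BWA and ce10. Control, thresholds, filters and the way replicates were combined are not given in the sources used here. Depth is unknown.

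Peaks were placed by midpoint, and chromosome length was the largest peak end. The 13 mitochondrial peaks were left out. Overlap meant at least 1 shared bp and was checked against bedtools 2.31.1; the counting steps were tested on simulated intervals. Values were computed with pandas 2.3.3 and numpy 2.4.6, intervals with scipy 1.17.1 and figures with matplotlib 3.10.9, under Python 3.11.15. Members, settings and the naming rule were chosen with earlier results of these data known. Named were the 10 highest and 5 widest III peaks, the highest of each support class and list, the tips, the 5 largest clusters, the 3 densest windows and the 3 longest gaps; the replicate 1 peaks at 3100 or more without a counterpart, further replicate peaks and the remaining replicate 2 clusters were chosen after their values were seen. No sequence was read, as no genome of this build was used here.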

Additional observations from a re-analysis of the deposited data

How the results depend on the processing

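On chromosome III the density of 62.0 peaks per Mb was 59.6 in the list of replicate 1 and 12.8 in that of replicate 2, 5.22 for the highest-scoring 10%, 6.46 for peaks in both replicates and 24.1 after merging within 10 kb; without the 47 kb central cluster it was 57.7 in replicate 1 and 10.3 in replicate 2. The share in the arms, 72.6%, was 64.9% with arms of 25% and 79.2% with arms of 35%, each above its length share. It was 67.9% in covered bases, 68.1% for the highest-scoring 10%, 65.2% for peaks in both replicates and 63.3% in replicate 2; without that cluster, a choice made after seeing the data, it was 78.9% there and 75.4% in replicate 1. The left arm's share, 34.4%, was 29.8% and 38.7% with these arm sizes, 30.2% in covered bases, 40.3% for the highest-scoring 10%, 30.3% for peaks in both replicates, 24.3% in replicate 2, and, without the cluster, 30.3% in replicate 2 and 33.0% in replicate 1. Support by at least 1 replicate (77.4%) ran from 12.5% to 75.3% with 1 replicate left out, and was 66.5% with reciprocal overlap of 50% and 71.2% with midpoints within 200 bp; support by both (10.4%) was 7.02% and 6.90% under these rules and 66.7% for the highest-scoring 10%. Median width in the arms minus that in the center was -18 bp, and -237.5 bp in replicate 2; it was 6 bp for the highest-scoring 10% and, without the cluster, 30.5 bp in replicate 2. For the score it was -0.01, and -18.3 in replicate 1, -11.6 in replicate 2 (each on its own scale) and 11.7 for peaks in both replicates; without the cluster it was -7.79 in replicate 1 and 48.9 in replicate 2. The share in clusters, 25.5%, was 14.9% with gaps of 2 kb, 41.4% with gaps of 10 kb, 49.9% with a minimum of 3 peaks, 6.20% with a minimum of 10 and 42.4% in replicate 2; without the cluster it was 22.0% in replicate 1 and 28.2% in replicate 2. The densest window began at III 300001 with windows of 50 kb (14 peaks) and at III 12600001 with 200 kb (30 peaks), in place of III 7400001. For all of these changes the cause was not tested. A peak missing from a list sets no limit on binding. No paired analysis was possible because only ChIP samples, all of 1 group, have peak lists among those used.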

Other observations

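A class of III peaks by width was picked after it was noticed in the plot of score against width. Their similar width is set by that choice, and the class is given as values only. Between 1050 and 1199 bp lay 19 series-wide peaks, against 14 between 900 and 1049 bp and 5 between 1200 and 1349 bp. Their series-wide scores ran from 17.4 to 53.4 with a median of 38.9. The median was 15.9 for the 14 narrower peaks and 38.0 for the 5 wider ones. The series-wide score thus set them apart from the narrower side alone. In replicate 1 these 19 sites reached scores of 509 to 3013 with a median of 2129, and 15 of them scored 1500 or more. Of the 14 narrower ones 0 did, and of the 5 wider ones 1 did. The replicate 1 medians of these were 285 and 1007. At 17 of the 19 sites replicate 1 had exactly 1 peak, 1043 to 1326 bp wide. Replicate 2 had a peak at 8 of the sites, and 11 were in replicate 1 alone.

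The 19 sites were scattered along III, with 6 in the left arm, 7 in the right arm and 6 in the center, and no pair had midpoints closer than 22.0 kb. In all, 17 of them were among the 72 III peaks in the highest-scoring 10%. They include 10 of the 22 of those that were in replicate 1 alone. Peaks of the same width class numbered 23 on II, 43 on IV, 47 on V and 16 on X, with median series-wide scores of 31.7, 36.4, 39.6 and 46.3. The class made up 2.22% of the peaks of III, against 2.50% on II, 2.89% on IV, 3.32% on V and 1.99% on X. The narrower and wider neighbouring classes were smaller there too, with 19 and 13 peaks on II, 32 and 15 on IV, 28 and 15 on V, and 8 and 10 on X. Replicate 1 alone supported 20 of the class on II, 33 on IV, 32 on V and 12 on X, so that support was not particular to III. The replicate 1 scores of the class had medians of 1521 on II, 2262 on IV, 2156.5 on V and 2756 on X. A replicate 1 score of 1500 or more was reached by 12 on II, 24 on IV, 27 on V and 11 on X. High replicate 1 scores in this class were thus not particular to III either. What lies at these sites was not examined, since no genome of this build was used here.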
